A study of Homo sapiens with 6 samples.

Results

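The 2 control oligonucleotides of a LINE1 (L1) knock-down experiment were compared with each other across all genes: the sense oligo of L1 (sO-L1) against the non-targeting antisense oligo (ASO-Ctr). The comparison used 4 of the 6 libraries of the study, chosen by their group labels, 2 with sO-L1 and 2 with ASO-Ctr. The other 2 libraries received the antisense oligo against L1 (ASO-L1); they entered the fit to help estimate the spread, and their values stand beside the others as a reference. All groups were H9 cells, a line of human embryonic stem cells, cultured in the primed state and given 25 nM of a fluorescein-tagged oligo with a lipid reagent. Further inhibitors were given to all groups as well: trans-ISRIB (0.7 uM), which acts against the integrated stress response, the caspase blocker emricasan (5 uM) and the ROCK inhibitor Y-27632 (10 uM). These agents were removed after 24 hours, and cells carrying the tag were sorted 48 hours after transfection. The descriptions give the medium after transfection both as mTeSR and as RSeT, and which of them the cells were in when collected is unclear. They also do not say whether the replicates are separate cultures of this 1 cell line. The p-values measure the spread between libraries that is left once replicate number is accounted for, and that spread may be technical.

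L1 elements are retrotransposons that make up a large share of the human genome and are transcribed in early embryos and pluripotent cells. An antisense oligo pairs with a complementary RNA, and those that form an RNA-DNA duplex recruit RNase H1, which cuts the RNA. A sense oligo has the sequence of the target RNA itself and so does not pair with that strand, while a non-targeting oligo is chosen to match no intended transcript. Both serve as controls for delivery and for the chemistry of the oligo. L1 RNA itself was not analysed here, since the count table is by gene.

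Libraries held 18897936 to 67192937 counts, with 23837 to 29825 genes detected and 3.791% to 4.243% of counts from mitochondrial genes. The shallowest was ASO-Ctr replicate 1, and sO-L1 replicate 1 held 34665403 counts. Of the 12 embryonic stem cell markers listed, 12 were tested, and their summed level was 11234 to 11770 CPM (counts relative to the TMM-scaled library size) in ASO-Ctr and 11535 to 11971 CPM in sO-L1. POU5F1, the central pluripotency factor, chosen as a check of the cell type, stood at 1133 and 1007 CPM in ASO-Ctr and at 1131 and 1020 CPM in sO-L1. Of these 12 markers only L1TD1 was called, 8.33% of the list against 1.72% of all genes.

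Of 19156 genes tested, 126 were higher and 204 lower in sO-L1 than in ASO-Ctr (edgeR quasi-likelihood test with replicate number as a block, Benjamini-Hochberg adjusted p under 0.05). These are 1.72% of the genes tested in either direction, 0.658% higher and 1.06% lower. The differences were small: the median absolute log2 fold change of the called genes was 0.254. Only 28 of the 330 differed at least 1.5-fold, 3 higher and 25 lower, and 11 differed at least 2-fold. All 330 had the same sign in both replicates, a pattern that the model with the block favours. The values of the 2 groups did not overlap for 249 of the 330, 105 higher and 144 lower, while 29.7% of all tested genes had groups that did not overlap. Protein coding genes made up 121 of the 126 higher genes, 174 of the 204 lower genes and 14432 of the 18826 genes not called. No biotype was found for 4, 17 and 2916 of these genes.

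**Figure D1:**
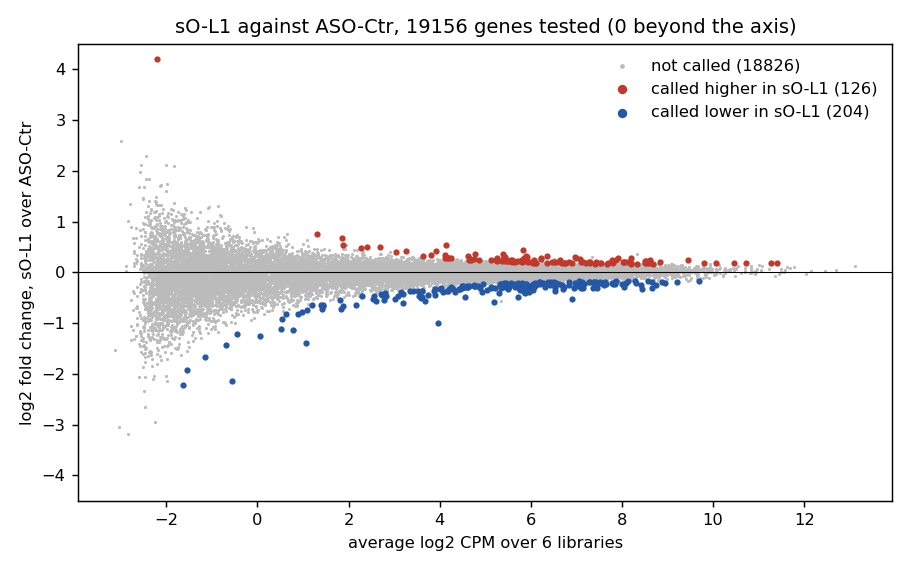
Log2 fold change of sO-L1 over ASO-Ctr (vertical axis) against average log2 CPM over the 6 libraries (horizontal axis) for 19156 genes, each point 1 gene. The 126 genes called higher (red) and 204 called lower (blue) lie mostly close to 0, and the called genes have a median absolute value of 0.254.

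These calls rested on the replicate block and on single libraries, sO-L1 replicate 1 above all. Without the block no gene was called by edgeR, while 218 genes were higher and 351 lower at an unadjusted p under 0.05. Without sO-L1 replicate 1, 9 genes were called, 2 higher and 7 lower. Without ASO-Ctr replicate 1 the calls were 17 higher and 70 lower. Of the 330 genes, 7 were called in each of the 6 fits that leave out 1 library: HMCN1, DST, MMP16, LPP and SLC6A6, which were lower, and ARRDC3 and SLC16A9, which were higher. Every other called gene named here lost its call in at least 1 of those fits. These 7 were singled out after their values were seen.

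**Figure D2:**
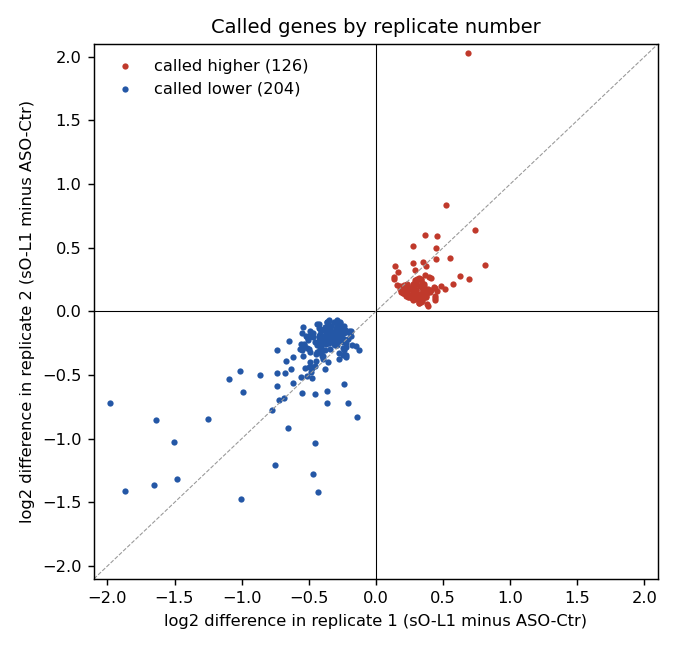
Log2 difference of sO-L1 minus ASO-Ctr in replicate 1 (horizontal axis) and in replicate 2 (vertical axis), each point 1 called gene, with the line of equal differences dashed. The 126 genes called higher (red) lie in the upper right and the 204 called lower (blue) in the lower left, and most lie farther from 0 in replicate 1 than in replicate 2.

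Promoter sequences are shown for 1 of these genes on either side of the comparison, the gene with the smallest p among the higher genes and, among the lower ones, that with the smallest p in the table of promoters. The sequences are from RefSeq (build GRCh38.p14), run 5′ to 3′ from 250 bases before to 50 bases after the start of the gene, and lie on the minus strand. DST is at chr6:56954781-56955080 and ARRDC3 at chr5:91383268-91383567. Capitals mark matches on either strand to the motifs searched, which do not overlap each other in these windows: the site of TATA-binding protein, TATAAA, that of the factor NF-Y, CCAAT, that of SP1, GGGCGG, and the E-box bound by MYC, CACGTG.
DST: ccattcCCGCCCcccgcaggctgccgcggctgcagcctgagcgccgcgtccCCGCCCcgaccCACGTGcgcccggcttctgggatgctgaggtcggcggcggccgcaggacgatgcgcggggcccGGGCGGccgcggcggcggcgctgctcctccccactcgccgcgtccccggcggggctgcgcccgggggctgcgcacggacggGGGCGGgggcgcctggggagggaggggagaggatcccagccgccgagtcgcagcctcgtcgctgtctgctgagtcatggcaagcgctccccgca
ARRDC3: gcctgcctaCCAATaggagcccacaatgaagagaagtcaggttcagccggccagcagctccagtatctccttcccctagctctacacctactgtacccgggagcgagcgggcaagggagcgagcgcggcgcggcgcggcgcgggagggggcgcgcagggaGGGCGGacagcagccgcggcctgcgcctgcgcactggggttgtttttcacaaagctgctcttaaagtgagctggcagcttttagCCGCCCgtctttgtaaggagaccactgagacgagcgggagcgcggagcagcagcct
The DST window had 4 matches to the SP1 motif and 1 E-box, with a GC content of 80%. That of ARRDC3 had 1 NF-Y and 2 SP1 matches at a GC content of 65%. Among 27305 promoters of the same length, 44.6% held the SP1 motif, 35.7% that of NF-Y, 12% that of TATA-binding protein and 7.43% the E-box.

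The smallest p of all genes was that of HMCN1, which encodes hemicentin-1, a large extracellular matrix protein. It stood at 17.7 and 23.9 CPM in ASO-Ctr and at 7.40 and 13.2 CPM in sO-L1 (replicates 1 and 2). The groups did not overlap, and the log2 fold change was -0.99 ± 0.09 (SE, adjusted p = 2.46e-10, edgeR). ASO-L1 lay between them at 12.4 and 16.2 CPM.

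DST encodes dystonin, a giant linker of the cytoskeleton to hemidesmosomes. Its level was 142 and 174 CPM in ASO-Ctr against 88.8 and 133 CPM in sO-L1, a log2 fold change of -0.52 ± 0.05 (adjusted p = 1.51e-08, edgeR). LPP, a LIM domain protein of focal adhesions, had 63.5 and 78.3 CPM in ASO-Ctr and 43.9 and 57.4 CPM in sO-L1. Its log2 fold change was -0.48 ± 0.06 (adjusted p = 1.21e-07, edgeR). In both genes each sO-L1 library was below both ASO-Ctr libraries. ASO-L1 was lower still, with 82.7 and 101 CPM for DST and 34.0 and 38.8 CPM for LPP.

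MMP16 encodes a membrane-bound matrix metalloproteinase. It measured 36.4 and 48.5 CPM in ASO-Ctr and 21.9 and 34.7 CPM in sO-L1, with a log2 fold change of -0.58 ± 0.07 (adjusted p = 1.21e-07, edgeR). SLC6A6, the taurine transporter, had 149 and 171 CPM in ASO-Ctr and 118 and 139 CPM in sO-L1. Its log2 fold change was -0.32 ± 0.05 (adjusted p = 6.51e-05, edgeR). The groups were apart for both genes, and ASO-L1 had 33.2 and 41.3 CPM of MMP16 and 122 and 149 CPM of SLC6A6.

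ARRDC3 encodes an alpha-arrestin that takes part in the internalisation of membrane receptors. It stood at 17.9 and 14.4 CPM in ASO-Ctr and at 24.5 and 21.8 CPM in sO-L1, a log2 fold change of 0.54 ± 0.08 (adjusted p = 2.42e-05, edgeR). SLC16A9 belongs to the monocarboxylate transporter family. Its values were 39.1 and 36.3 CPM in ASO-Ctr and 50.03 and 47.4 CPM in sO-L1, a log2 fold change of 0.37 ± 0.06 (adjusted p = 1.03e-04, edgeR). For both genes the sO-L1 libraries stood above both ASO-Ctr libraries. ASO-L1 measured 14.5 and 13.5 CPM of ARRDC3 and 41.0 and 36.5 CPM of SLC16A9. The comparisons of sO-L1 and of ASO-L1 with ASO-Ctr share the ASO-Ctr libraries, so their values are set side by side only.

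By size of change, the 12 highest genes with an average log2 CPM of at least 1 ran from SLC16A9 to ZNF441. ZNF441, a zinc finger gene, measured 2.02 and 1.603 CPM in ASO-Ctr and 2.94 and 2.93 CPM in sO-L1 (log2 fold change 0.75 ± 0.18, adjusted p = 0.0157, edgeR). SYT4, a synaptotagmin of secretory vesicles, had 1.75 and 2.70 CPM in ASO-Ctr and 2.99 and 4.26 CPM in sO-L1, and the groups were apart. HMGN5, a nucleosome-binding protein, rose from 46.2 and 48.9 CPM to 74.7 and 58.4 CPM (0.45 ± 0.07). XRCC4, a factor of DNA end joining, had 12.7 and 13.6 CPM in ASO-Ctr and 19.8 and 16.5 CPM in sO-L1 (0.42 ± 0.09). HMGN5 and XRCC4 differed more in replicate 1, by 0.69 and 0.63 on the log2 scale, than in replicate 2, by 0.26 and 0.28. HMGN5 measured 0.29 without sO-L1 replicate 1.

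The neuropeptide gene NMU (log2 fold change 0.54 ± 0.15), the G protein subunit gene GNB3 (0.49 ± 0.12) and COL7A1, the collagen of anchoring fibrils (0.41 ± 0.10), also had groups that did not overlap. So did the non-coding or unnamed genes RP4-717I23.3 and RP11-452F19.3, both at 0.49 ± 0.13. RP4-717I23.3 measured 0.86 without ASO-Ctr replicate 2, and NMU 0.28 with all libraries thinned to the shallowest. IGFBP5, a binding protein of insulin-like growth factors, was called with overlapping groups: 14.1 and 3.80 CPM in ASO-Ctr against 17.03 and 5.46 CPM in sO-L1. Its replicates lay farther apart than its groups, and its unadjusted p without the block was 0.585.

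Among the 12 lowest genes, RPL37P2, a ribosomal protein pseudogene, had 7.01 and 1.98 CPM in ASO-Ctr and 1.70 and 1.17 CPM in sO-L1 (log2 fold change -1.38 ± 0.23, adjusted p = 0.00125, edgeR). Without ASO-Ctr replicate 1 it measured -0.78, and reads of such copies can be shared with the parent gene. ABCB1, the drug efflux pump P-glycoprotein, had 2.44 and 2.54 CPM in ASO-Ctr and 1.44 and 1.52 CPM in sO-L1 (-0.74 ± 0.19, adjusted p = 0.0283, edgeR). ONECUT2, a homeobox transcription factor, had 3.13 and 3.41 CPM in ASO-Ctr and 1.91 and 2.09 CPM in sO-L1 (-0.72 ± 0.17, adjusted p = 0.0145, edgeR). The replicates of ABCB1 and ONECUT2 lay close together and the groups apart, and both genes stood at low levels.

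MUC4, a membrane mucin, fell by 0.71 on the log2 scale (SE 0.16), with 1.61 CPM in sO-L1 replicate 1 and 3.11 CPM in replicate 2 against 3.56 and 4.55 CPM in ASO-Ctr. GRIN2B, a glutamate receptor subunit, and TATDN2P2, a pseudogene, were called with overlapping groups. The log2 fold changes of GRIN2B, TATDN2P2, LINC00571, RNF144A-AS1 and RP5-865N13.2 were -0.64 to -0.66, and some rested on 1 library. LINC00571 measured -0.14 and GRIN2B -0.30 without ASO-Ctr replicate 2, and TATDN2P2 measured -0.39 without sO-L1 replicate 1 and -1.25 without replicate 2. RNF144A-AS1 was not called with DESeq2 size factors. It is antisense to RNF144A, and without the strand setting of the counting its reads cannot be told apart from those of RNF144A.

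**Figure D3:**
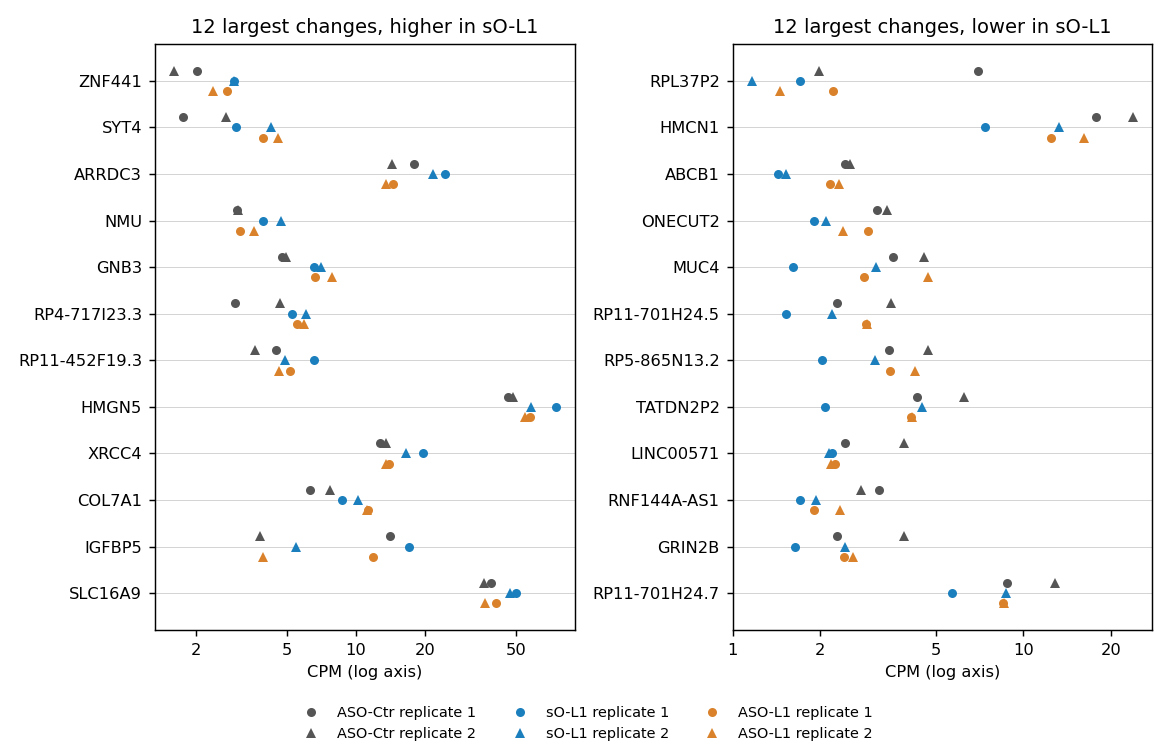
CPM on a log axis for the 12 called genes with the largest change in each direction, each point 1 library, coloured by oligo with replicate 1 as circles and replicate 2 as triangles. Of the 24 genes, IGFBP5, GRIN2B and TATDN2P2 have overlapping sO-L1 and ASO-Ctr values, and IGFBP5 differs more between replicates than between oligos.

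Transcripts named after the clone RP11-701H24 were among the lower genes. All 6 such genes listed were tested, and 4 were called lower and 0 higher, where 1.06% of all genes were lower. Nothing is read from this count, since the genes were chosen after their values were seen, and their counts may overlap those of neighbouring transcripts. RP11-701H24.7 had 8.81 and 12.9 CPM in ASO-Ctr and 5.70 and 8.69 CPM in sO-L1 (log2 fold change -0.60 ± 0.11, adjusted p = 9.57e-04, edgeR). The log2 fold changes of RP11-701H24.5, RP11-701H24.3 and RP11-701H24.2 were -0.66 ± 0.18, -0.46 ± 0.12 and -0.22 ± 0.05. RP11-701H24.5 and RP11-701H24.2 measured -0.37 and -0.11 without ASO-Ctr replicate 2, and RP11-701H24.3 measured -0.75 without sO-L1 replicate 2. SNURF, also chosen after the fact, which shares a transcript with SNRPN at the imprinted Prader-Willi locus, fell from 22.6 and 31.0 CPM to 16.1 and 22.2 CPM (-0.49 ± 0.08, adjusted p = 1.07e-04, edgeR). SNRPN, listed separately, measured -0.10 ± 0.09 and was not called.

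Some of the 12 higher genes with the smallest p were picked out after their values were seen. HMGB2, a DNA-bending protein, had 274 and 247 CPM in ASO-Ctr and 364 and 277 CPM in sO-L1 (log2 fold change 0.29 ± 0.05, adjusted p = 4.7e-04, edgeR). ANP32B, a histone chaperone, had 75.03 and 76.5 CPM against 105 and 87.8 CPM (0.33 ± 0.05). In HMGB2 and ANP32B the difference in replicate 1 was larger than in replicate 2.

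EPCAM, CHGA, ESRG and LINC00458 were likewise picked out after their values were seen. EPCAM, an epithelial adhesion molecule of pluripotent cells, rose from 215 and 213 CPM to 276 and 244 CPM (log2 fold change 0.27 ± 0.05, adjusted p = 5.32e-04, edgeR). CHGA, a granin of secretory granules, rose from 133 and 138 CPM to 162 and 164 CPM (0.27 ± 0.05, adjusted p = 8.08e-04, edgeR). ESRG and LINC00458, non-coding transcripts of pluripotent cells, were lower. ESRG had 448 and 444 CPM in ASO-Ctr and 390 and 396 CPM in sO-L1 (-0.18 ± 0.05), and 579 and 557 CPM in ASO-L1. LINC00458 was near 1 to 2 CPM, with -1.12 ± 0.23, and -0.71 without sO-L1 replicate 2.

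The lower genes had long transcripts. The longest annotated transcript of a gene had a median of 9644 nt among the lower genes, 2852 nt among the higher genes and 3450 nt among genes not called. A length was found for 91.7%, 96.8% and 84.5% of these genes, and the longest transcript need not be the one expressed. Of 333 tested genes with a transcript of at least 12000 nt, 63 (18.9%) were called lower and 0 higher. Among all genes with a length, 1.15% were called lower and 0.752% higher. From 8000 to 12000 nt, 55 of 1046 genes (5.26%) were lower and 1 was higher. Between 1000 and 2000 nt the order turned, with 27 of 2361 genes higher and 5 lower.

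HMCN1, DST and LPP belong to this class, and further members were among the lower genes with the smallest p. SYNE2, a nesprin of the nuclear envelope, had 101 and 125 CPM in ASO-Ctr and 75.2 and 100.2 CPM in sO-L1 (log2 fold change -0.37 ± 0.05, adjusted p = 1.47e-05, edgeR). MACF1, a linker of microtubules and actin, had 440 and 473 CPM against 330 and 404 CPM (-0.32 ± 0.05). GPR98, an adhesion G protein-coupled receptor, had 71.3 and 83.6 CPM against 50.8 and 66.9 CPM (-0.39 ± 0.05). MLL3, a histone H3 methyltransferase, had 62.6 and 68.9 CPM against 43.2 and 57.4 CPM (-0.38 ± 0.06). MDN1, an AAA ATPase of ribosome assembly, had 375 and 445 CPM against 279 and 379 CPM (-0.32 ± 0.05), with groups that overlapped. In each of the 5 genes sO-L1 replicate 1 was the lowest of the 4 libraries. With the length trend of each library removed, SYNE2 measured -0.20, MACF1 -0.13, GPR98 -0.23, MLL3 -0.24 and MDN1 -0.17. MACF1 then lost its call, while SYNE2, GPR98, MLL3 and MDN1 kept theirs.

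The argonaute genes AGO1 and AGO2, which bind small guide RNAs, were called lower and also have long transcripts, 13708 and 14581 nt. AGO1 had 196 and 197 CPM in ASO-Ctr and 152 and 181 CPM in sO-L1 (log2 fold change -0.24 ± 0.05, adjusted p = 0.0059, edgeR). AGO2 had 45.3 and 51.6 CPM against 30.8 and 45.7 CPM (-0.33 ± 0.07, adjusted p = 0.0208, edgeR). Without sO-L1 replicate 1 AGO1 and AGO2 measured -0.14 and -0.16, and AGO2 measured -0.57 without sO-L1 replicate 2. With the length trend removed AGO1 measured -0.12 and lost its call, while AGO2 measured -0.20 and kept it. The pair was picked out after its values were seen.

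Length also tracked differences between replicates of the same oligo. Relative to each gene's mean over the 6 libraries, the median log2 level of genes of at least 12000 nt was 0.015 and 0.163 for the ASO-Ctr libraries (replicates 1 and 2), -0.186 and 0.056 for those of sO-L1 and -0.074 and 0.047 for those of ASO-L1. The lowest library was sO-L1 replicate 1 and the highest ASO-Ctr replicate 2, and replicate 1 was lower than replicate 2 for each oligo. Transcripts of this length held 2.402% and 2.634% of counts in ASO-Ctr and 2.12% and 2.489% in sO-L1. Within replicate 1 the median difference of these genes between sO-L1 and ASO-Ctr was -0.215, and within replicate 2 it was -0.088. Across 10099 genes with an average log2 CPM of at least 3, the log2 fold change had a Pearson correlation of -0.375 and a Spearman correlation of -0.381 with log10 length, a description over genes that share the same 4 libraries. Without sO-L1 replicate 1, 3 genes of at least 12000 nt were called lower.

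When the length trend of each library was removed, an alternative chosen after seeing the data, 184 genes were called higher and 174 lower. Among genes of at least 12000 nt, 30 were then lower and 27 higher, and the median of this class moved from -0.145 to -0.03. Over the same 16219 genes with a length, the share of called genes that were higher was 40.9% with no trend removed (141 higher and 204 lower), 51.4% with the length trend removed and 23.8% with the trend in GC content removed instead. Over all genes it was 38.2%, and it was 49.3% in the authors' log2 table. The median GC content was 40.9% among higher genes, 45.8% among lower genes and 48.9% among genes not called. The 7 genes called in every fit with 1 library left out kept their direction and call with either trend removed and the block kept. HMCN1 then measured -0.85 and DST -0.34 with the length trend removed. The source of the length trend was not tested.

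**Figure D4:**
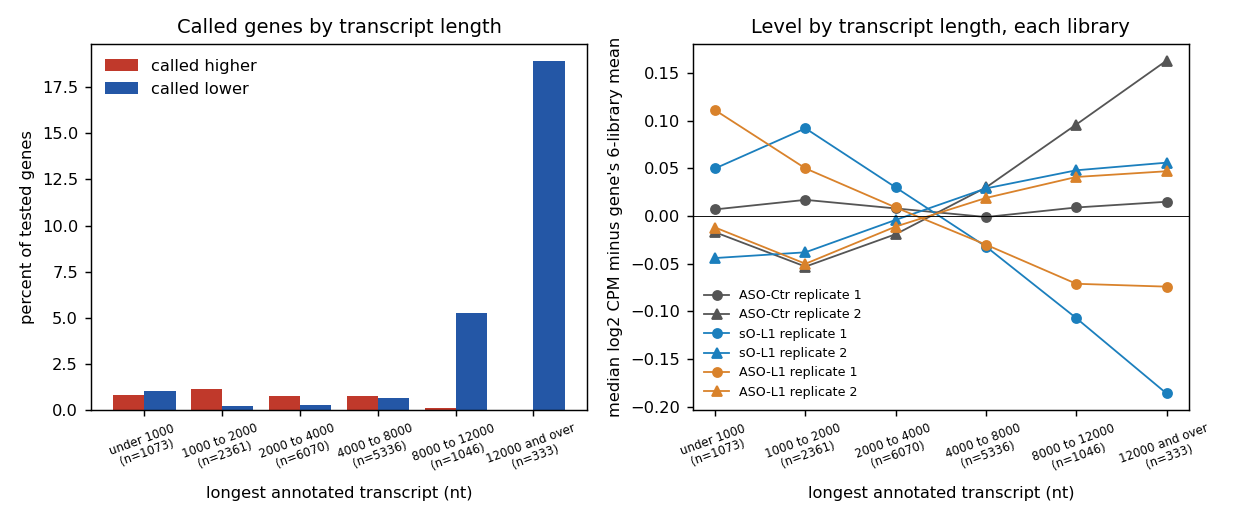
Left, the percent of tested genes called higher (red) or lower (blue) in sO-L1 by length of the longest annotated transcript, reaching 18.9% lower at 12000 nt and over. Right, the median over genes of log2 CPM minus each gene's 6-library mean, 1 line per library, where sO-L1 replicate 1 falls to -0.186 and ASO-Ctr replicate 2 rises to 0.163 in the longest class.

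In the stress and signalling lists few members were called, and the medians lay near that of all genes, which was 0. The integrated stress response list had 35 tested members, 1 higher and 0 lower, with a median log2 fold change of 0.051. That gene was ASNS, asparagine synthetase, at 106 and 97.2 CPM with ASO-Ctr, 124 and 109 CPM with sO-L1 and 251 and 203 CPM with ASO-L1 (0.19 ± 0.05, adjusted p = 0.0398, edgeR, for sO-L1). With the length trend removed ASNS measured 0.15 and lost its call. It measured 0.14 without ASO-Ctr replicate 1 and 0.26 without ASO-Ctr replicate 2. DDIT3, the stress-induced factor CHOP, picked as a reference with its values known, measured 0.21 ± 0.15 and was not called. None of 20 aminoacyl-tRNA synthetases was called. Of 20 endoplasmic reticulum chaperones, HSP90B1 was higher, with 1431 and 1371 CPM against 1593 and 1585 CPM. Of 20 heat shock chaperones, HSP90AA1 (0.19 ± 0.05) and HSPH1 (0.17 ± 0.05) were higher. The calls were 2.86%, 5% and 10% of the members of the stress response, endoplasmic reticulum and heat shock lists, against 1.72% of all genes, and each rested on 1 or 2 genes.

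The p53 targets gave 1 higher and 1 lower of 29 tested, 6.9% against 1.72% of all genes. PMAIP1, the death-promoting BH3 protein NOXA, rose (log2 fold change 0.18 ± 0.05), and ZMAT3, an RNA-binding p53 target, fell by 0.23 with overlapping groups. PMAIP1 was not called with upper-quartile scaling, and ZMAT3 measured -0.15 without sO-L1 replicate 2. With the length trend removed PMAIP1 and ZMAT3 measured 0.13 and -0.16, and both lost their calls. CDKN1A, the CDK inhibitor p21, picked as a reference with its values known, measured -0.12 ± 0.06 and was not called. PMAIP1 was also the 1 called gene among 15 of the BCL2 family. No member was called among 20 NRF2 targets, 6 metallothioneins, 17 NF-kB targets and 27 lysosome and autophagy genes. With the length trend removed the NF-kB target SOD2 was called higher, at 0.28, and the NRF2 target FTH1 lower, at -0.16.

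Of 36 tested genes of interferon response and nucleic acid sensing, BST2 (tetherin), a restriction factor of enveloped viruses, was higher at 46.6 and 48.8 CPM against 58.1 and 53.1 CPM (log2 fold change 0.21 ± 0.06, adjusted p = 0.0448, edgeR). BST2 was not called with upper-quartile scaling. It measured 0.13 with the length trend removed and lost its call there too. The other 35 were not called in the fit with no trend removed, and IFNB1 had at most 2 counts in any library. Among 24 genes known to handle or bind antisense oligos, among them the RNase H subunits and paraspeckle proteins, only HSP90AA1 was called. The lists of nucleic acid sensing and of oligo handling thus had 1 call each, 2.78% and 4.17% of their tested members, against 1.72% of all genes.

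FOSL1, an AP-1 subunit, was the 1 called gene of 24 immediate-early genes, with 20.3 and 18.8 CPM in ASO-Ctr and 15.9 and 16.0 CPM in sO-L1 (log2 fold change -0.28 ± 0.08, adjusted p = 0.0412, edgeR). In ASO-L1 it stood at 38.2 and 32.7 CPM. Among 21 YAP-TEAD targets AMOTL2, an angiomotin that binds YAP, was higher (0.31 ± 0.06), and the phosphatase gene PTPN14 was lower (-0.32 ± 0.08, with -0.17 without sO-L1 replicate 1 and -0.56 without replicate 2). The longest transcript of PTPN14 is 12985 nt. With the length trend removed PTPN14 measured -0.21 and lost its call, while AMOTL2 measured 0.30 and kept it. Of 23 FGF-ERK genes, the receptor FGFR3 was higher (0.29 ± 0.08) and the feedback inhibitor IL17RD lower (-0.17 ± 0.05). IL17RD was not called with DESeq2 size factors and measured -0.10 with the length trend removed. FZD5, a WNT receptor, was the 1 called gene of 32 in its list and fell from 94.9 and 93.8 CPM to 83.8 and 78.1 CPM. No gene of the Nodal (22 tested), BMP (20) or Notch (17) lists was called. LEFTY1 and LEFTY2, secreted Nodal inhibitors, measured -0.46 ± 0.13 and -0.45 ± 0.13 with adjusted p of 0.0526 and 0.0704 (edgeR), and LEFTY1 was called lower with upper-quartile scaling. With the length trend removed LEFTY1 and LEFTY2 were both called lower, at -0.51 and -0.48. These lists held 0 to 2 called genes each, where 1.72% of all genes were called.

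Metabolic and growth lists were as sparse. IDI1 was higher among 25 cholesterol synthesis genes (log2 fold change 0.19 ± 0.05), and NDUFB5 among 39 nuclear respiratory chain genes (0.21 ± 0.05), both with overlapping groups. IDI1 measured 0.09 without sO-L1 replicate 1 and 0.29 without replicate 2. MT-ATP8 was lower among 13 mitochondrially encoded genes (-0.29 ± 0.05, and -0.19 without ASO-Ctr replicate 1), and its gene overlaps MT-ATP6. The calls of IDI1, NDUFB5 and MT-ATP8 are 4%, 2.56% and 7.69% of their lists, against 1.72% of all genes. No member was called among 14 fatty acid synthesis, 35 hypoxia and glycolysis, 37 DNA replication, 30 mitosis and 18 G1 genes. With the length trend removed ACSS2 of the fatty acid list was called lower, at -0.22, and VEGFA of the hypoxia list higher, at 0.22. The lists of 79 cytosolic and 40 mitochondrial ribosomal proteins had no call, with median log2 fold changes of 0.047 and 0.08. Replication-dependent histones had the lowest median of the lists, -0.203 over 21 genes, with HIST1H2BJ and HIST1H2AC lower (9.52% of the list, against 1.06% of all genes). Without sO-L1 replicate 2, HIST1H2BJ and HIST1H2AC measured -0.43 and -0.17. Histone mRNAs mostly lack a poly(A) tail, and this list summed to 73.0 to 87.5 CPM in ASO-Ctr and 60.2 to 80.0 CPM in sO-L1.

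The lists with most higher calls, 3 each, were those of the nucleolus and of splicing factors. The list of 49 genes of the nucleolus and rRNA synthesis had 3 higher and 0 lower members: NOP16 and GAR1, factors of ribosome assembly and of H/ACA pseudouridylation (both 0.23 ± 0.06), and TAF1D, a subunit of the RNA polymerase I factor SL1 (0.17 ± 0.05). With the length trend removed NOP16 and GAR1 measured 0.17 and 0.16 and lost their calls, while TAF1D stayed called. TAF1D measured 0.11 with the trend in GC content removed. It also counted among 19 snoRNA host genes, as the 1 call. Of 29 SR and hnRNP splicing factors 3 were higher and 0 lower (10.3%, and 6.12% for the nucleolar list), against 0.658% higher among all genes. HNRNPA2B1 had 2176 and 2383 CPM in ASO-Ctr and 2632 and 2577 CPM in sO-L1 (0.19 ± 0.05), followed by HNRNPH3 (0.19 ± 0.05) and HNRNPA3 (0.18 ± 0.05). The median of the splicing list was 0.063, and 28 of its 29 members were above 0, as were 9561 of all 19156 genes. Such a tilt was seen in other lists too: 19 of 20 aminoacyl-tRNA synthetases, 37 of 40 mitochondrial ribosomal proteins and 32 of 37 DNA replication genes were above 0. Without sO-L1 replicate 1, NOP16, GAR1, HNRNPA2B1 and HNRNPA3 measured 0.14, 0.15, 0.12 and 0.12, and without ASO-Ctr replicate 1 HNRNPA3 and HNRNPH3 measured 0.11 and 0.12. With the length trend removed HNRNPA2B1, HNRNPH3 and HNRNPA3 measured 0.22, 0.16 and 0.19 and stayed called. All these calls of the nucleolar and splicing lists were lost without the block.

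The study asked how L1 acts on genes of the 8-cell stage, and the chromatin lists were drawn up with that question in view. Of 29 genes that silence L1 or restrict it, CBX3, the heterochromatin protein HP1 gamma, was higher, with 346 and 374 CPM in ASO-Ctr and 444 and 406 CPM in sO-L1 (log2 fold change 0.24 ± 0.05, adjusted p = 0.00485, edgeR). CBX5, HP1 alpha, was lower, with 651 and 661 CPM against 534 and 622 CPM (-0.18 ± 0.05, adjusted p = 0.0324, edgeR). These calls are 6.9% of the list, against 1.72% of all genes. The longest transcripts of CBX3 and CBX5 are 2128 and 11528 nt. With the length trend removed CBX3 measured 0.19 and stayed called, while CBX5 measured -0.08 and was not called. Without sO-L1 replicate 1, CBX3 and CBX5 measured 0.16 and -0.09, CBX3 measured 0.14 without ASO-Ctr replicate 1, and CBX5 measured -0.28 without sO-L1 replicate 2. TRIM28, a corepressor of retroelements picked as a reference with its values known, measured 0.01 ± 0.05. None of 14 PRC2 genes was called.

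Only 11 of 37 genes of the 8-cell list in the table had counts enough to be tested, and 0 were called; 16 had no count in any library, among them DUX4, DUXA and LEUTX. ZSCAN4 had no count in the ASO-Ctr and sO-L1 libraries, where 3 counts correspond to 0.0437 to 0.159 CPM. DPPA3, which is expressed in germ cells and the early embryo, had 2.23 and 1.603 CPM in ASO-Ctr and 1.35 and 1.12 CPM in sO-L1 (-0.58 ± 0.21, adjusted p = 0.187, edgeR). None of 9 naive pluripotency genes was called. Of 29 core and primed pluripotency genes, L1TD1, an RNA-binding protein derived from L1 ORF1, was higher, with 1561 and 1702 CPM in ASO-Ctr and 1853 and 1838 CPM in sO-L1 (0.18 ± 0.05, adjusted p = 0.0308, edgeR). It measured 0.12 without sO-L1 replicate 1. This single call is 3.45% of the list, against 1.72% of all genes.

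**Figure D5:**
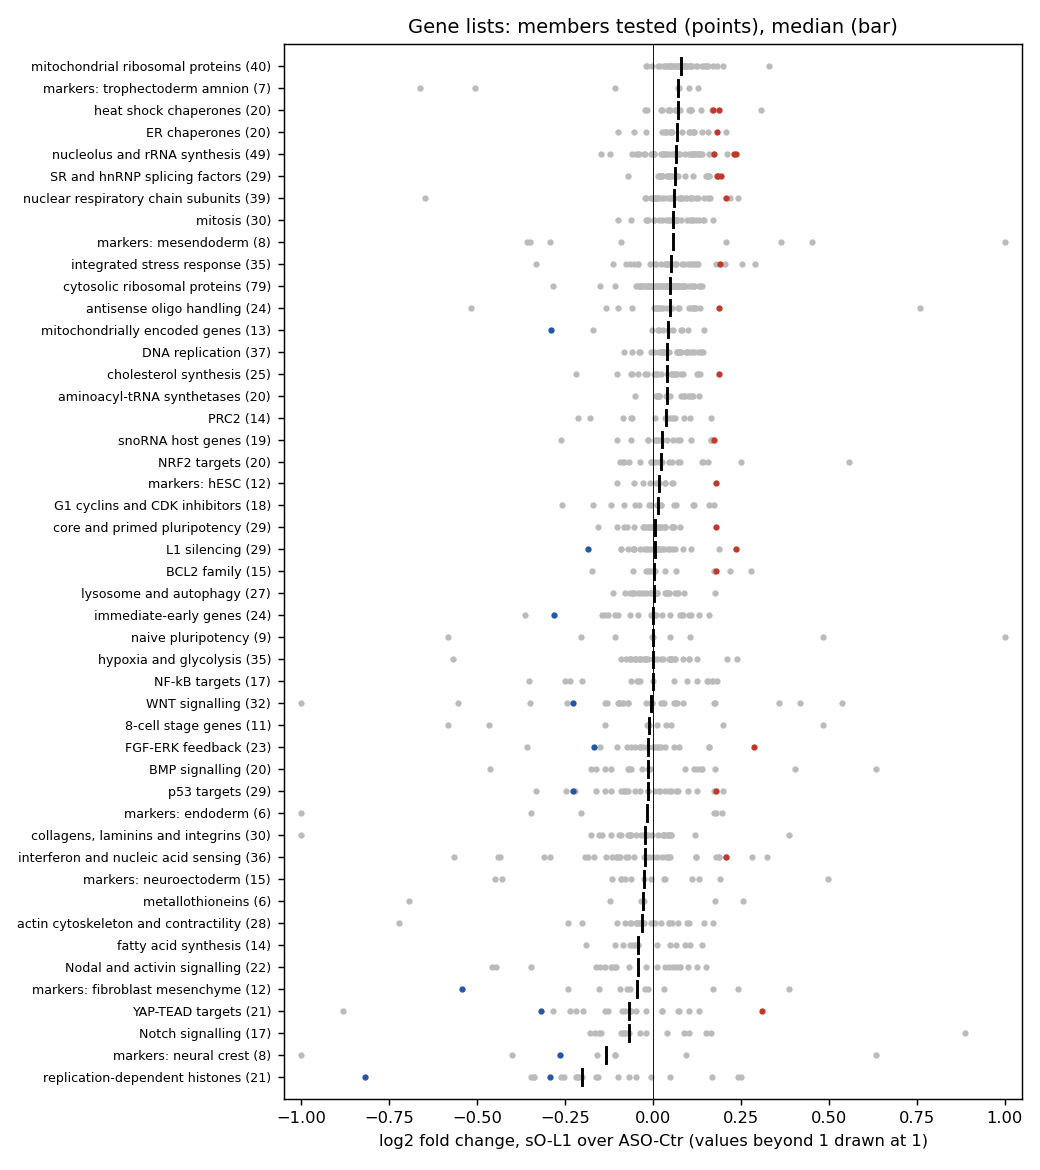
Log2 fold change of sO-L1 over ASO-Ctr for each tested member (points) of the 47 gene lists, with the number tested in brackets, the median as a bar and values beyond 1 drawn at 1. Called genes are red (higher) or blue (lower), no list has more than 3, and the medians run from -0.203 for histones to 0.08 for mitochondrial ribosomal proteins.

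Few markers of other cell types were called. The median log2 fold change was -0.134 for neural crest markers, with 2 of 8 above 0. It was -0.045 for fibroblast markers, with 4 of 12 above 0. The neuroectoderm, mesendoderm, endoderm and trophectoderm lists had medians from -0.027 to 0.072. Neural crest markers summed to 92.97 and 99.96 CPM in ASO-Ctr and 89.0 and 88.7 CPM in sO-L1, with ETS1 lower as the 1 call of 8 (log2 fold change -0.27 ± 0.06). Fibroblast markers summed to 668 and 595 CPM against 632 and 578 CPM, with S100A4 lower as the 1 call of 12 (-0.54 ± 0.12). These single calls are 12.5% and 8.33% of the 2 lists, against 1.06% lower among all genes. ETS1 measured -0.18 without sO-L1 replicate 2 and S100A4 -0.27 without ASO-Ctr replicate 2 and -0.34 without sO-L1 replicate 2. No marker was called among 15 of neuroectoderm, 8 of mesendoderm, 6 of endoderm and 7 of trophectoderm and amnion. The mesendoderm markers summed to at most 8.38 CPM and the endoderm markers to at most 12.02 CPM in any library, and HAND1 had no count. No gene was called among 28 of the actin cytoskeleton and contractility and 30 listed collagens, laminins and integrins, a list without COL7A1. With the length trend removed TAGLN, MYL9 and ITGB5 of these lists were called lower, at -0.27, -0.23 and -0.15. In bulk samples fewer cells of a type and less RNA per cell cannot be told apart.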

How the data were processed

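Poly(A) RNA of 6 libraries was sequenced with a directional kit, per the labels' protocols. Per the submitters' processing notes, the tools were Trim Galore 0.4.0 for trimming, TopHat2 2.0.13 for mapping (genome hg19) and featureCounts (Subread 1.5.0) for counting. The deposited table gives each gene's raw counts, from which the authors removed duplicate reads as its name says, and the strand setting is not given in the sources used here. The authors' deposited log2 table holds normalized, batch-corrected log2 values and served as an alternative only. Columns were matched to samples by group and replicate in their names.

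Of 53807 entries, 92 spike-in sequences (at most 4 counts in a library) were left out, and 35175 of 53715 genes had a count. The 19156 genes passing filterByExpr (minimum count 10, minimum total 15) entered edgeR 4.0.16 (R 4.3.3) with TMM factors of 0.983 to 1.022. The robust quasi-likelihood fit had terms for group and replicate number and used the 6 libraries together, since 4 libraries with a block leave 1 residual degree of freedom. The 6 libraries left 2, and the spread was moderated across genes with a median of 44.8 prior degrees of freedom. An SE was obtained by dividing the size of the log2 fold change by the square root of F. A floor of 3 counts covers counting error only. No pair of libraries was identical. The script was tested on simulated counts.

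Named genes were the 12 called genes with the largest change in each direction, if their sign agreed between replicates and their average log2 CPM was at least 1, and up to 4 called members of each list, or the 2 with the smallest p where none was called. Every other gene named was chosen with its values known. The genes, the 40 gene lists and the 7 marker lists were chosen with earlier results of these data known. The alternatives were other scalings (upper-quartile, DESeq2 size factors), other filters (none, or CPM above 0.5 in 2 libraries), other tests (limma-voom with limma 3.58.1, DESeq2 1.42.0, limma on the log2 table), no replicate block, 4 libraries, each library left out, thinning to 18897936 counts, adjusted p under 0.1 and a fold of at least 1.5. Added after seeing the data were removal of each library's trend with transcript length or GC content, as a lowess offset. Where 1 library of a group was left, its spread was taken from the other groups. Lengths are from GENCODE v29, and gene coordinates of that build were not used for the counts.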

Additional observations from a re-analysis of the deposited data

How the results depend on the processing

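The numbers of calls, 126 higher and 204 lower, stayed within 1.5 times under DESeq2 size factors, upper-quartile scaling, limma-voom, thinning and both other filters on low counts. The genes were not all the same. Thinning shared 214 of 327 tested main calls with the same sign, limma-voom 276 of 330 and DESeq2 size factors 314 of 330. With the length trend removed 194 of 309 were shared. Higher and lower calls were 54 and 71 with DESeq2's Wald test, which gave an adjusted p for 223 of the 330 genes, and 3 and 25 with a fold of at least 1.5. Higher calls alone moved to 200 in the authors' log2 table, 229 in the 4 libraries compared, 226 at an adjusted p under 0.1 and 62 with the GC trend removed. Leaving out each library in turn gave 2 to 217 higher and 7 to 279 lower calls. The lowest counts were those without sO-L1 replicate 1; without ASO-Ctr replicate 1 they were 17 and 70, without sO-L1 replicate 2 they were 70 and 108, and without either ASO-L1 library 217 higher. Of the 330 calls, 196 were shared with the same sign without ASO-Ctr replicate 2. The cause of these moves was not tested. With no replicate block there were 0 higher and 0 lower calls, and likewise with the length trend removed and no replicate block; the smallest adjusted p without the block was 0.99994 (edgeR).

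Over 10298 genes, the replicate 1 minus replicate 2 differences of any 2 groups correlated at 0.712, 0.613 and 0.722. With 2 numbers, and labels that tie no batch to a number, the pairing is not established, so whether the replicate block removes a shared batch was not tested. Among the named genes, 4 values changed sign, none of them called: FTH1 ranged from -0.164 to 0.005 with 1 library left out, PRDM1 from -0.281 to 0.006 and RP11-701H24.4 from -0.195 to 0.056, each positive without ASO-Ctr replicate 2, and RP11-701H24.4 also without sO-L1 replicate 2, at 0.005. Genes under about 1 CPM rest on few counts, and their differences could not be measured well at this depth.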
